A study of Mus musculus with 9 samples.

Results

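The genes described here are 45 enzymes of amino acid catabolism and gluconeogenesis, together with linked steps of aspartate and inositol metabolism. They were taken by gene symbol from the 29678 genes of the count tables, and all 45 had enough counts to be tested. Whole mouse kidney was profiled by sequencing of oligo(dT)-purified RNA, with all samples labelled as taken 24 h post-reperfusion. Sham kidneys came from sham operations, bIRI kidneys had ischemia and reperfusion on both sides, and BHBNa_bIRI kidneys had the same injury in animals first given BHB sodium, a salt of the ketone body beta-hydroxybutyrate. Strain, sex, age, dose and the timing of that treatment are not given in the sources used here, and no group with the treatment alone was analysed here. The labels list 3 libraries a group, but the table of bIRI replicate 2 held the rounded-down average of replicates 1 and 3 throughout, so 8 libraries were used, with 2 in bIRI. No label says that each library is a separate animal, so p-values measure only the spread between these libraries.

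The proximal tubule takes up nearly all filtered amino acids and breaks down many of them in its mitochondria and peroxisomes. Besides the liver, the kidney cortex is the main organ that makes glucose from lactate, glutamine and other precursors, and phosphoenolpyruvate carboxykinase, fructose bisphosphatase and glucose-6-phosphatase carry the steps that glycolysis cannot run backwards. The kidney also makes guanidinoacetate, the precursor of creatine, converts citrulline to arginine, degrades proline, glycine and branched-chain amino acids, and clears inositol.

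Total counts lay between 33477985 and 45909063 per library. Levels are CPM, that is counts scaled to library size after TMM normalization, and are given in the order of replicates 1, 2 and 3, or 1 and 3 for bIRI. A floor of 3 counts equals 0.0646 to 0.0815 CPM, which covers counting error only. The share of counts on the mitochondrial genome was 11.2% to 13.3% in Sham, about 15.9% in both bIRI libraries, and 24.0% to 30.3% in BHBNa_bIRI. The bIRI libraries differed more from each other than the libraries of the other groups did. Over the 45 members, the median absolute log2 ratio between the 2 bIRI libraries was 0.58, against 0.14 to 0.25 between pairs of Sham libraries and 0.14 to 0.20 between pairs of BHBNa_bIRI libraries. Of the members, 7 differed by more than 2-fold between the bIRI libraries, namely Gldc, Shmt1, Hpd, Bckdhb, Dbt, Mccc2 and Miox, and the largest gap was 4.86-fold for Gldc.

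Most of these enzymes were at a fraction of their Sham level in the injured kidneys. Summed over the 45 genes, the level was 21630, 20190 and 21930 CPM in Sham, 5208 and 3920 CPM in bIRI, and 4144, 4427 and 4151 CPM in BHBNa_bIRI, so that no injured library came near a Sham library. In bIRI against Sham, 36 of the 45 fell and 1, Arg2, rose at an adjusted p of 0.05, where 16.2% of the 17967 genes tested fell and 18.9% rose. Levels of 40 members lay below Sham in both bIRI libraries, where 27.2% of all genes did, and Arg2 lay above it in both, where 28.7% did. The median log2 fold change of the members was -2.05, against 0.08 over all genes tested. The members that did not pass the edgeR test were Oat, Gldc, Ddo, Bckdhb, Dbt, Acadsb, Hibch and Got1, and the estimates of all 8 were below 0. DESeq2 called 37 lower, Hibch among them. The alternatives to the edgeR fit, counted here and below, include DESeq2 and a fit of all 9 tables. That fit counts the averaged bIRI table as a library, which narrows the spread of bIRI without adding a measurement. Leaving out a bIRI library leaves 1 in that group, which is then assumed to vary like the other groups. For 37 of the 45 the direction and the side of the threshold were the same in all 18 alternatives, which called 35 to 41 lower and 1 higher.

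**Figure D1:**
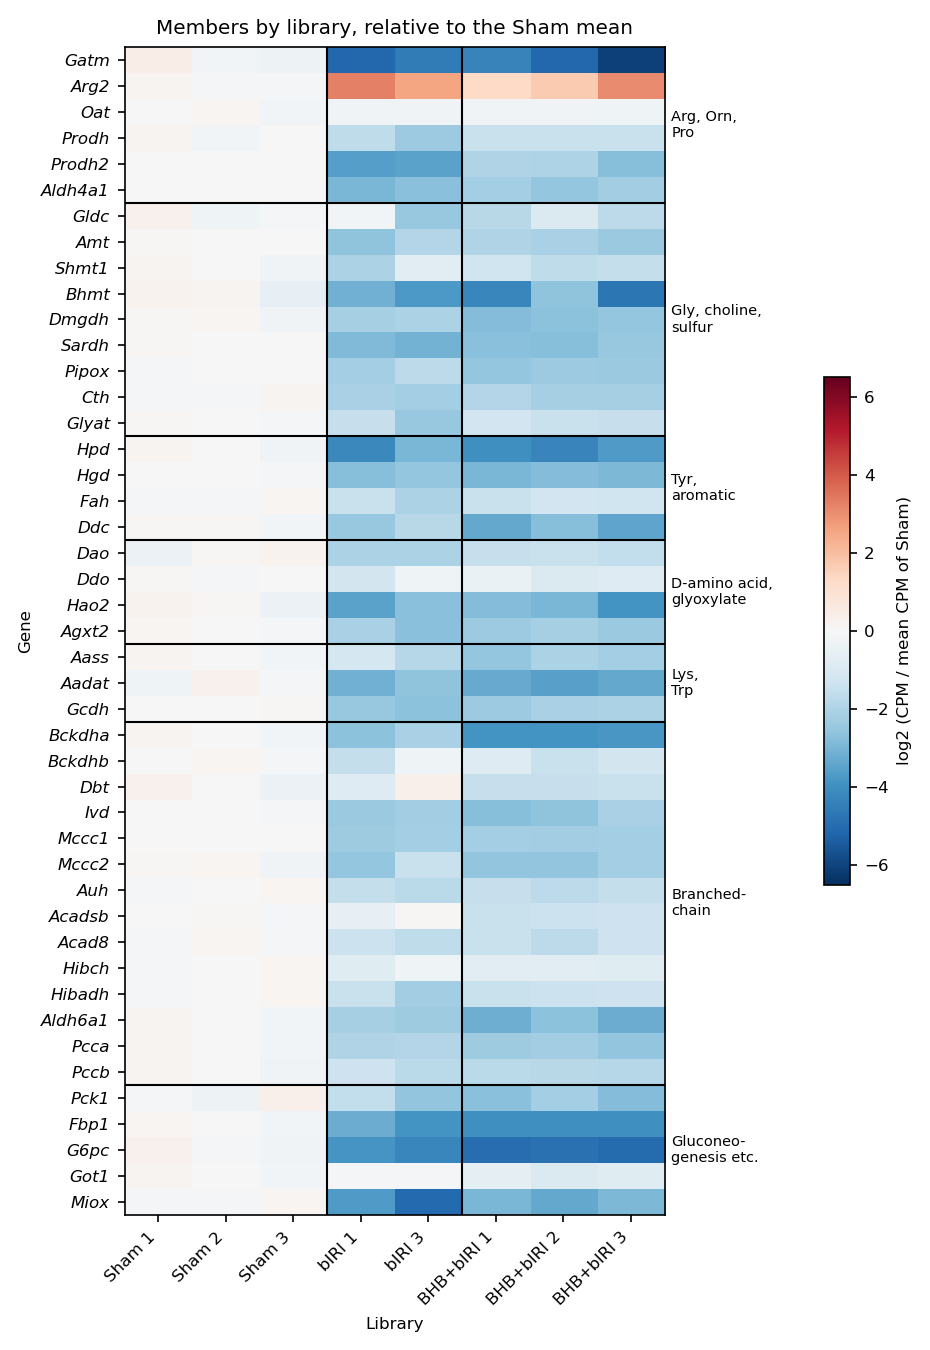
Heat map of the 45 genes (rows, in blocks by pathway branch) in the 8 libraries (columns); color is the log2 ratio of CPM to the mean CPM of Sham, blue below and red above. Blue fills most of the bIRI and BHBNa_bIRI columns, Arg2 is red in all 5 injured libraries, and Oat stays pale throughout.

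Markers of the cells that hold these enzymes moved with them. Of 13 proximal tubule markers, 13 fell in bIRI, with a median log2 fold change of -2.81, and their summed level was 13240 to 15480 CPM in Sham, 2105 and 2343 CPM in bIRI, and 2337 to 2469 CPM in BHBNa_bIRI. None of these markers was at 0, and the transcription factor gene Hnf4a, which is on that list, had a log2 fold change of -1.80 (SE 0.22, adjusted p 0.000389). In whole tissue, fewer proximal tubule cells and less RNA of these genes per cell cannot be told apart. Thick ascending limb markers summed to 1816 to 3349 CPM in Sham, 1508 and 4266 CPM in bIRI, and 270 to 837 CPM in BHBNa_bIRI, with the higher bIRI level in replicate 3. Fibroblast markers summed to 115 to 134 CPM in Sham, 237 and 384 CPM in bIRI and 347 to 498 CPM in BHBNa_bIRI. Leukocyte markers summed to 34.1 to 72.9 CPM in Sham, 39.7 and 44.3 CPM in bIRI, and 56.0 to 103.7 CPM in BHBNa_bIRI. These sums join genes that moved in opposite directions, since 1 of the 6 leukocyte markers rose and 1 fell in bIRI. The part of these markers in the results was not tested. The 5 hepatocyte markers summed to 73.3 to 129.7 CPM in Sham, 58.6 and 65.4 CPM in bIRI, and 18.7 to 177.7 CPM in BHBNa_bIRI. Of the 4 that were tested 1, Alb, fell in bIRI, and Cps1 was too low to test, at a mean of 0.0318 CPM in Sham and at 0 in BHBNa_bIRI.

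Among enzymes of arginine, ornithine and proline, 4 of 6 fell in bIRI, 1 rose and 1 was not called. Gatm encodes the arginine-glycine amidinotransferase that starts creatine synthesis (ENSMUSG00000027199, chromosome 2, 122594467 to 122611303, GRCm38). It was at 937, 612 and 562 CPM in Sham, 20.2 and 30.1 CPM in bIRI, and 34.5, 20.1 and 10.6 CPM in BHBNa_bIRI. Every injured library lay more than an order of magnitude below every Sham library, and the fall in bIRI was 27.98-fold, with a log2 fold change of -4.81 (SE 0.55, adjusted p 0.000306), the steepest of the 45. Arg2 encodes the mitochondrial arginase, which turns arginine into ornithine and urea (ENSMUSG00000021125, chromosome 12, 79130777 to 79156301). It was at 7.98, 6.30 and 6.64 CPM in Sham, 67.9 and 41.7 CPM in bIRI, and 16.97, 22.5 and 58.2 CPM in BHBNa_bIRI. All 5 injured libraries were above Sham, the rise in bIRI was 7.86-fold, and the log2 fold change was 2.97 (SE 0.46, adjusted p 0.00141). The Arg2 exons share 20% of their bases with Vti1b on the other strand, and since the strand setting of the counting is not given, reads there cannot be assigned to either gene with certainty. Vti1b held 24842 counts over the 8 libraries and Arg2 9782.

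Oat encodes ornithine aminotransferase, the next step from ornithine towards glutamate and proline. It was at 243, 261 and 206 CPM in Sham, 205 and 203 CPM in bIRI, and 204, 201 and 194 CPM in BHBNa_bIRI. Both injured groups were just under Sham, without overlap, and the log2 fold change in bIRI was -0.21 (SE 0.18, adjusted p 0.388). Prodh, the proline dehydrogenase gene, was at 294, 227 and 256 CPM in Sham, 82.4 and 50.5 CPM in bIRI, and 94.8, 94.1 and 94.1 CPM in BHBNa_bIRI. The injured libraries were all lower than Sham, with the bIRI libraries lowest, and the log2 fold change in bIRI was -1.96 (SE 0.24, adjusted p 0.000472). Prodh2 encodes the dehydrogenase of hydroxyproline, which comes from collagen breakdown (ENSMUSG00000036892, chromosome 7, 30493622 to 30513402). It was at 94.7, 93.3 and 98.2 CPM in Sham, 7.90 and 8.48 CPM in bIRI, and 24.8, 23.96 and 13.96 CPM in BHBNa_bIRI. The 3 groups did not overlap, and both bIRI libraries were the lowest. Prodh2 fell 11.6-fold in bIRI, by a log2 fold change of -3.54 (SE 0.28, adjusted p 6.73e-05), and was 2.55-fold higher in BHBNa_bIRI than in bIRI (log2 fold change 1.35, SE 0.25, adjusted p 0.0275). Aldh4a1, whose enzyme finishes the oxidation of proline and hydroxyproline to glutamate or its hydroxylated form, fell in bIRI, with a log2 fold change of -2.84 (SE 0.20, adjusted p 4.98e-05), with 48.3 and 55.99 CPM in bIRI and 81.2, 64.6 and 77.6 CPM in BHBNa_bIRI.

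The enzymes of glycine, choline and sulfur amino acids fell in 8 of 9 in bIRI, with a median log2 fold change of -2.11. Gldc, the decarboxylase of the glycine cleavage system, was the one not called, at 138, 94.3 and 105 CPM in Sham, 101 and 20.8 CPM in bIRI, and 32.2, 59.6 and 35.1 CPM in BHBNa_bIRI. Its bIRI libraries differed 4.86-fold and 1 of them overlapped Sham. Its log2 fold change was -0.89 (SE 0.55, adjusted p 0.235), or -2.51 without bIRI replicate 1. Its partner Amt, the aminomethyltransferase of the same system, was at 132, 123 and 124 CPM in Sham, 20.5 and 33.8 CPM in bIRI, and 32.9, 29.2 and 23.99 CPM in BHBNa_bIRI, with a log2 fold change of -2.22 (SE 0.25, adjusted p 0.000287). Amt was low in every injured library, while Gldc was low in all but bIRI replicate 1. Shmt1, which moves the carbon unit of serine onto folate, had a log2 fold change of -1.24 (SE 0.34, adjusted p 0.0199), with 19.98 and 49.99 CPM in bIRI. Its log2 fold change was -2.04 without bIRI replicate 3 and -0.79 without bIRI replicate 1, and 16 of 18 alternatives called it, with an adjusted p of 0.0624 without Sham replicate 1.

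Betaine, dimethylglycine and sarcosine form the chain by which choline is broken down to glycine. Bhmt, which uses betaine to turn homocysteine into methionine, was the weakest gene of the set, at 4.05, 3.97 and 2.38 CPM in Sham, 0.394 and 0.262 CPM in bIRI, and 0.186, 0.560 and 0.136 CPM in BHBNa_bIRI. No injured library passed 0.560 CPM, and the log2 fold change in bIRI was -3.39 (SE 0.65, adjusted p 0.00387). Dmgdh and Sardh, the mitochondrial dehydrogenases of dimethylglycine and sarcosine, fell in bIRI, with a log2 fold change of -2.11 (SE 0.19, adjusted p 0.000112) and -2.98 (SE 0.21, adjusted p 4.98e-05). Sardh was at 545 to 598 CPM in Sham, 75.8 and 66.4 CPM in bIRI and 81.3 to 101 CPM in BHBNa_bIRI. Pipox, the peroxisomal oxidase of sarcosine and pipecolate, Cth, which makes cysteine from cystathionine, and Glyat, which joins glycine to acyl groups, had log2 fold changes of -1.91 to -2.15 and were called lower. Glyat was at -2.55 without bIRI replicate 1. In BHBNa_bIRI against bIRI, edgeR called 0 of these 9 genes, while 2 were lower at an unadjusted p under 0.05 and DESeq2 called the same number, Dmgdh and Pipox, lower.

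The branch of tyrosine and aromatic enzymes fell in every member in bIRI, 4 of 4. Hpd, whose dioxygenase makes homogentisate (ENSMUSG00000029445, chromosome 5, 123171807 to 123182727), was at 98.8, 89.04 and 73.9 CPM in Sham, 4.71 and 11.2 CPM in bIRI, and 5.46, 4.41 and 6.85 CPM in BHBNa_bIRI. The injured libraries held a small remnant of the Sham level, and the fall was 10.97-fold in bIRI, -3.46 (SE 0.38, adjusted p 0.000275), with -4.21 without bIRI replicate 3 and -3.03 without bIRI replicate 1. Hgd, which opens the ring of homogentisate, had a log2 fold change of -2.66 (SE 0.20, adjusted p 6.6e-05). Fah, the fumarylacetoacetase that ends tyrosine breakdown, fell least of the branch. It was at 594, 576 and 685 CPM in Sham, 229 and 148 CPM in bIRI, and 224, 258 and 253 CPM in BHBNa_bIRI. All injured libraries were below Sham, and the log2 fold change was -1.71 (SE 0.24, adjusted p 0.000892). Ddc, the decarboxylase that makes dopamine in the tubule (ENSMUSG00000020182, chromosome 11, 11814101 to 11898144), was at 166, 167 and 140.2 CPM in Sham, 28.1 and 45.9 CPM in bIRI, and 15.99, 23.2 and 14.8 CPM in BHBNa_bIRI. The 3 groups stood apart in the order Sham, bIRI, BHBNa_bIRI, with log2 fold changes of -2.09 (SE 0.28, adjusted p 0.000667) in bIRI against Sham and -1.04 (SE 0.26, adjusted p 0.0354) in BHBNa_bIRI against bIRI.

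Among the peroxisomal oxidases of D-amino acids and hydroxy acids and the mitochondrial aminotransferase Agxt2, 3 of 4 fell in bIRI. Dao, the D-amino acid oxidase that clears D-serine, was at 282, 389 and 437 CPM in Sham, 89.8 and 88.01 CPM in bIRI, and 128, 134 and 122 CPM in BHBNa_bIRI. The groups did not overlap, and the bIRI libraries were lowest, with a log2 fold change of -2.05 (SE 0.23, adjusted p 0.000283) against Sham and of 0.53 (SE 0.22, adjusted p 0.118) between the injured groups. Hao2, a 2-hydroxy acid oxidase, was at 365, 326 and 241 CPM in Sham, 27.97 and 46.6 CPM in bIRI, and 44.1, 39.3 and 21.1 CPM in BHBNa_bIRI. The injured groups overlapped each other far below Sham, and the fall in bIRI was 8.32-fold, -3.06 (SE 0.39, adjusted p 0.000506). Ddo, the oxidase of D-aspartate, was at 41.2, 37.5 and 39.3 CPM in Sham, 17.2 and 32.2 CPM in bIRI, and 28.98, 20.7 and 21.7 CPM in BHBNa_bIRI. It lay below Sham in every injured library, but its log2 fold change in bIRI was -0.67 (SE 0.27, adjusted p 0.0767). Without bIRI replicate 3 that value was -1.19. Agxt2, which handles dimethylarginine and beta-aminoisobutyrate, fell, with a log2 fold change of -2.36 (SE 0.23, adjusted p 0.000137).

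The 3 enzymes of lysine and tryptophan breakdown all fell in bIRI. Aass, the bifunctional enzyme that starts lysine degradation, was at 694, 596 and 542 CPM in Sham, 274 and 169.7 CPM in bIRI, and 108, 147 and 132 CPM in BHBNa_bIRI. The groups did not overlap, with BHBNa_bIRI lowest, and the log2 fold changes were -1.46 (SE 0.27, adjusted p 0.00314) against Sham in bIRI and -0.79 (SE 0.25, adjusted p 0.0635) between the injured groups, where DESeq2 called Aass lower. Aadat, the aminotransferase of aminoadipate and kynurenine, was at 243, 368 and 285 CPM in Sham, 34.6 and 48.3 CPM in bIRI, and 31, 26.2 and 29.4 CPM in BHBNa_bIRI. It fell 7.21-fold in bIRI (log2 fold change -2.85, SE 0.26, adjusted p 0.000109), and every BHBNa_bIRI library was under both bIRI libraries. Gcdh, whose enzyme oxidizes glutaryl-CoA on the route that both pathways share, fell, with a log2 fold change of -2.55 (SE 0.21, adjusted p 8.74e-05).

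**Figure D2:**
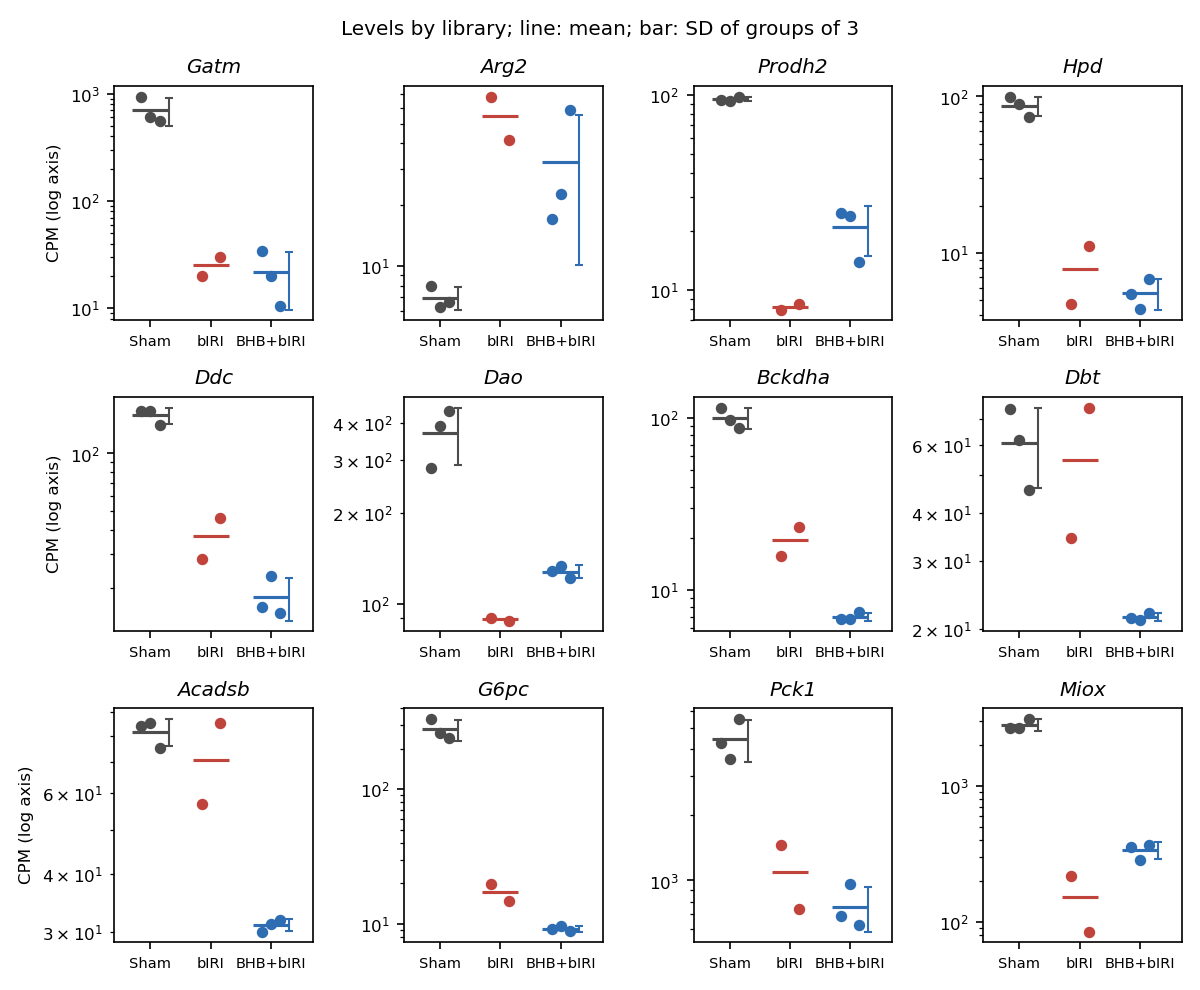
CPM on log axes for 12 members in each library of Sham, bIRI and BHBNa_bIRI (points), with the mean as a line and the SD of groups of 3 as a bar. Injured libraries are far below Sham for Gatm, Hpd and Miox and above it for Arg2, while Dbt and Acadsb are lowest with BHBNa_bIRI and overlap with Sham in bIRI.

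Branched-chain amino acids are first transaminated and then committed by a dehydrogenase complex in the mitochondrial matrix, whose E1 component is built from Bckdha and Bckdhb and whose E2 core is Dbt. In this branch 10 of 14 genes fell in bIRI, with a median log2 fold change of -1.71, and the other 4 were Bckdhb, Dbt, Acadsb and Hibch. Bckdha (ENSMUSG00000060376, chromosome 7, 25629946 to 25658981) was at 115, 98.1 and 87.99 CPM in Sham, 15.8 and 23.2 CPM in bIRI, and 6.78, 6.76 and 7.42 CPM in BHBNa_bIRI. The 3 groups stood apart, with BHBNa_bIRI lowest, and the log2 fold changes were -2.36 (SE 0.22, adjusted p 0.00013) in bIRI against Sham and -1.48 (SE 0.20, adjusted p 0.0275) in BHBNa_bIRI against bIRI. Bckdhb was at 41.4, 45.5 and 38.4 CPM in Sham, 14.1 and 34.3 CPM in bIRI, and 23.4, 15.2 and 18.2 CPM in BHBNa_bIRI. It was low in bIRI replicate 1 and near Sham in bIRI replicate 3. Its log2 fold change in bIRI was -0.79 (SE 0.34, adjusted p 0.0983), or -1.56 without bIRI replicate 3.

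Dbt (ENSMUSG00000000340, chromosome 3, 116513070 to 116549981) was at 74.2, 61.7 and 45.7 CPM in Sham, 34.4 and 74.9 CPM in bIRI, and 21.3, 21.1 and 22.03 CPM in BHBNa_bIRI. The bIRI libraries straddled Sham, whereas the BHBNa_bIRI libraries sat below all others, with log2 fold changes of -0.15 (SE 0.31, adjusted p 0.745) in bIRI and -1.35 (SE 0.30, adjusted p 0.0308) in BHBNa_bIRI against bIRI. The direction in bIRI turned with the libraries used: it was 0.24 without bIRI replicate 1, 0.0256 without Sham replicate 1, and -0.81 without bIRI replicate 3. Acadsb, the dehydrogenase of the isoleucine branch (ENSMUSG00000030861, chromosome 7, 131410601 to 131448944), was at 84.1, 85.4 and 75.2 CPM in Sham, 56.7 and 85.1 CPM in bIRI, and 30, 31.2 and 31.8 CPM in BHBNa_bIRI. Here too bIRI overlapped Sham and BHBNa_bIRI did not overlap either, with log2 fold changes of -0.20 (SE 0.19, adjusted p 0.448) in bIRI and -1.19 (SE 0.19, adjusted p 0.0275) in BHBNa_bIRI against bIRI.

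Per kilobase of exon, the subunit genes of the complex changed order. In Sham, Bckdha was the highest in each library, at 60.6, 51.6 and 46.3 RPKM, against 21.3 to 25.2 RPKM for Bckdhb and 13.7 to 22.2 RPKM for Dbt. The ratio of Bckdha to Bckdhb was 2.05 to 2.65 in Sham, 1.06 and 0.644 in bIRI, and 0.275 to 0.422 in BHBNa_bIRI. In BHBNa_bIRI, Bckdha was the lowest of the 3 genes in every library, at 3.56 to 3.91 RPKM. Exons of Bckdha share 61.7% of their bases with B3gnt8 on the other strand, and with the strand setting not given, reads there cannot be told apart, so the level of Bckdha is uncertain. B3gnt8 held 1017 counts over the 8 libraries and Bckdha 15000.

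**Figure D3:**
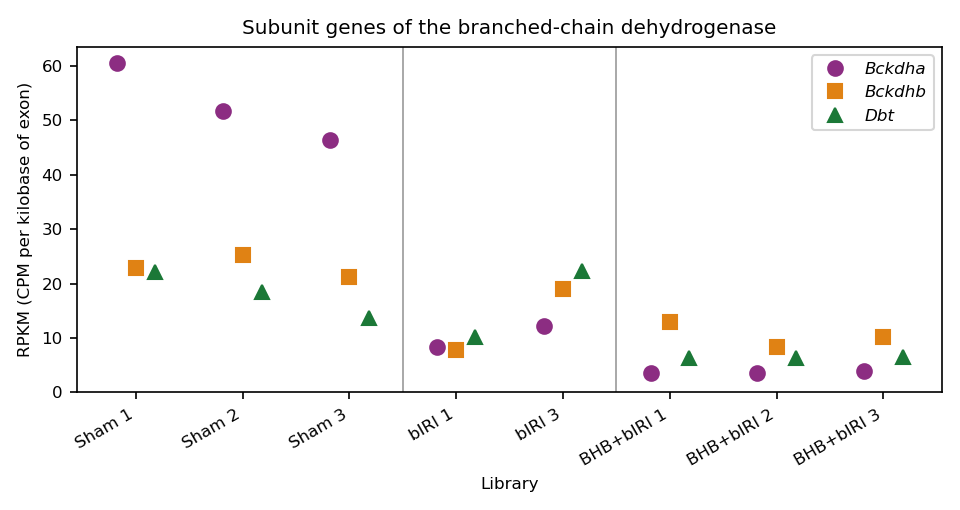
RPKM (CPM per kilobase of exon) of Bckdha, Bckdhb and Dbt in each library. Bckdha lies above the others in the 3 Sham libraries and below them in the 3 BHBNa_bIRI libraries, and bIRI replicate 3 is above bIRI replicate 1 for all 3 genes.

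Further down the branch, all members but Acadsb and Hibch were called lower in bIRI. Ivd, the isovaleryl-CoA dehydrogenase of leucine, went from 623 to 670 CPM in Sham to 124 and 138 CPM in bIRI, and its log2 fold change was -2.32 (SE 0.25, adjusted p 0.000243). Mccc1 and Mccc2, the subunit genes of methylcrotonyl-CoA carboxylase, had log2 fold changes of -2.23 (SE 0.16, adjusted p 5.21e-05) and -1.88 (SE 0.31, adjusted p 0.00185), and Auh, the hydratase that follows, of -1.63 (SE 0.18, adjusted p 0.000244). Without bIRI replicate 3 Mccc2 was at -2.51. Mccc1 was at 39.0 and 41.9 CPM in bIRI and 39.9 to 40.9 CPM in BHBNa_bIRI, so the injured groups overlapped. On the valine side, Acad8, Hibadh and Aldh6a1 fell, with log2 fold changes of -1.52, -1.79 and -2.23, while Hibch, the hydrolase between them, had -0.52 (SE 0.19, adjusted p 0.0554) with edgeR and was called lower by DESeq2 and by 6 of the 18 alternatives in all. Aldh6a1, the methylmalonate semialdehyde dehydrogenase, was at 1145, 1017 and 889.7 CPM in Sham, 226 and 207 CPM in bIRI, and 111, 159 and 110.0 CPM in BHBNa_bIRI. Its groups did not overlap, and its value in BHBNa_bIRI against bIRI was -0.77 (SE 0.23, adjusted p 0.0536) with edgeR, while DESeq2 and 5 of the 18 alternatives in all called it lower. The propionyl-CoA carboxylase genes Pcca and Pccb, into which isoleucine and valine drain, fell, with a log2 fold change of -1.92 (SE 0.19, adjusted p 0.000152) and -1.52 (SE 0.22, adjusted p 0.000975). Exons of Pcca share 4.63% of their bases with Ggact, and those of Aldh6a1 18.6% with Bbof1, on the other strand.

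The enzymes that make glucose fell steeply. Pck1, the carboxykinase that forms phosphoenolpyruvate (ENSMUSG00000027513, chromosome 2, 173153048 to 173159273), was at 4254, 3614 and 5527 CPM in Sham, 1451 and 742 CPM in bIRI, and 690.1, 959 and 626 CPM in BHBNa_bIRI. It was the gene with the most counts of the set in every library, the injured libraries were all below Sham, and the fall in bIRI was 4.07-fold, -2.03 (SE 0.37, adjusted p 0.0032), or -2.66 without bIRI replicate 1. Fbp1, the fructose bisphosphatase, was at 1461, 1355 and 1161 CPM in Sham, 139.7 and 88.7 CPM in bIRI, and 84.4, 83.5 and 83.4 CPM in BHBNa_bIRI. The 3 BHBNa_bIRI libraries were nearly equal and just under the lower bIRI library, and the log2 fold change in bIRI was -3.54 (SE 0.28, adjusted p 6.73e-05). G6pc, whose phosphatase releases free glucose (ENSMUSG00000078650, chromosome 11, 101367561 to 101377903), was at 334, 262 and 239.6 CPM in Sham, 19.7 and 14.7 CPM in bIRI, and 9.12, 9.67 and 8.80 CPM in BHBNa_bIRI. The groups stood apart in the order Sham, bIRI, BHBNa_bIRI. G6pc fell 16.2-fold in bIRI (log2 fold change -4.02, SE 0.24, adjusted p 4.91e-05) and was lower still in BHBNa_bIRI than in bIRI, with -0.90 (SE 0.20, adjusted p 0.0308).

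Miox, the oxygenase that starts the breakdown of inositol and is made almost only in the proximal tubule (ENSMUSG00000022613, chromosome 15, 89334398 to 89337015), was at 2669, 2693 and 3143 CPM in Sham, 218 and 84.6 CPM in bIRI, and 358, 284 and 372 CPM in BHBNa_bIRI. The groups did not overlap, and bIRI was lowest. Miox fell 18.7-fold in bIRI (log2 fold change -4.23, SE 0.43, adjusted p 0.000204), and its estimate between the injured groups was 1.16 (SE 0.37, adjusted p 0.0641), outside the threshold. The size of both estimates moved with the bIRI library used. Without bIRI replicate 1 they were -5.14 and 2.05, and without bIRI replicate 3 they were -3.70 and 0.62. The fall against Sham was called in all 18 alternatives. DESeq2 called Miox higher between the injured groups, as did 5 of the 18 alternatives in all. Got1, the cytosolic aspartate aminotransferase (ENSMUSG00000025190, chromosome 19, 43499752 to 43524605), was at 142, 125 and 110.4 CPM in Sham, 117 and 116 CPM in bIRI, and 82.9, 65.7 and 73.9 CPM in BHBNa_bIRI. Its bIRI libraries lay inside the range of Sham and its BHBNa_bIRI libraries below both, with log2 fold changes of -0.11 (SE 0.18, adjusted p 0.673) in bIRI and -0.65 (SE 0.18, adjusted p 0.043) in BHBNa_bIRI against bIRI.

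The sequence before the start site is shown for Agxt2, the member whose promoter held an HNF4 motif outside the gene itself. It comes from RefSeq on GRCm38.p6, which had promoters for 42 of the 45 members. The 250 bases before each start were searched on both strands for the HNF4 letters CAAAGTCCA and for TGACGTCA. The latter is a form of the cyclic AMP response element, and only exact matches were counted. The stretch, chr15:10358283-10358531, is on the plus strand, 5′ to 3′, ends before the first base of the gene in GENCODE, and has the match in capitals.
Agxt2: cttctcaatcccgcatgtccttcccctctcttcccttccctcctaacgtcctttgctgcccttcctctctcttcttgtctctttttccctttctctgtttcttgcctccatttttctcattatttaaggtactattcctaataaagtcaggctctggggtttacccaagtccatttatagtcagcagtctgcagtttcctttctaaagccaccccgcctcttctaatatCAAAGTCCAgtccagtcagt
The HNF4 letters began 21 bases before the first of the RefSeq starts of Agxt2. They were in 2 of the 42 members with a promoter, Aadat and Agxt2, and in 0.451% of the 27025 genes with a RefSeq promoter. The cyclic AMP letters were in 0 of 42 members and in 1.77% of these genes. Letters that differ from them by a base, such as TTACGTCA in the window of Pck1, were not counted. A match describes letters in a window and is not a measured site.

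The second comparison, BHBNa_bIRI against bIRI, asks whether the injured kidneys differed with BHB sodium given beforehand. In it 6 of the 45 members fell and 1 rose, where 8.65% of all genes tested fell and 4.88% rose. Bckdha, Dbt, Acadsb, Ddc, G6pc and Got1 were lower, and Prodh2 was higher. Levels of 14 members lay below bIRI without overlap and 7 above, where 23.8% and 22.2% of all genes did. The members' median log2 fold change was -0.21, against -0.05 over all genes. At an unadjusted p under 0.05, 12 members were lower and 4 higher, where 19.6% and 14.9% of all genes were. Dmgdh, Hgd, Pipox, Aass, Aadat, Aldh6a1, Pcca and Fbp1 were the other members with all BHBNa_bIRI libraries below bIRI. Prodh, Aldh4a1, Sardh, Dao, Gcdh and Miox were the other members with all above it. By branch, arginine, ornithine and proline enzymes had 3 of 6 members above bIRI and 0 below, and the branched-chain branch had 0 of 14 above and 5 below. In the same comparison 3 of 4 thick ascending limb markers and 2 of 13 proximal tubule markers fell. The 13 proximal tubule markers had a median log2 fold change of 0.0965, and 5 of them were below 0. Without overlap, 3 of them lay above bIRI and 3 below. The part of both sets of markers in these calls was not tested.

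None of these 7 calls held in every alternative, and the adjusted p-values of all 7 lay between 0.0275 and 0.043. With edgeR, 0 members were called without Sham replicate 1, without Sham replicate 2, without BHBNa_bIRI replicate 1 or without BHBNa_bIRI replicate 3, although 2 to 4 were higher and 9 to 12 lower at an unadjusted p under 0.05. Without bIRI replicate 1, which leaves 1 bIRI library that is assumed to vary like the other groups, 14 were lower and 8 higher, and without bIRI replicate 3 the counts were 4 and 1. DESeq2 called 10 lower and 3 higher. Log2 fold changes over all 18 alternatives ran from -2.002 to -1.18 for Bckdha, -1.75 to -0.69 for Dbt, -1.40 to -0.50 for Acadsb, -1.10 to -0.62 for G6pc and 0.85 to 1.57 for Prodh2, and Ddc ran from -1.29 to -0.65 and Got1 from -0.91 to -0.57, so the sign of all 7 was the same in each.

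**Figure D4:**
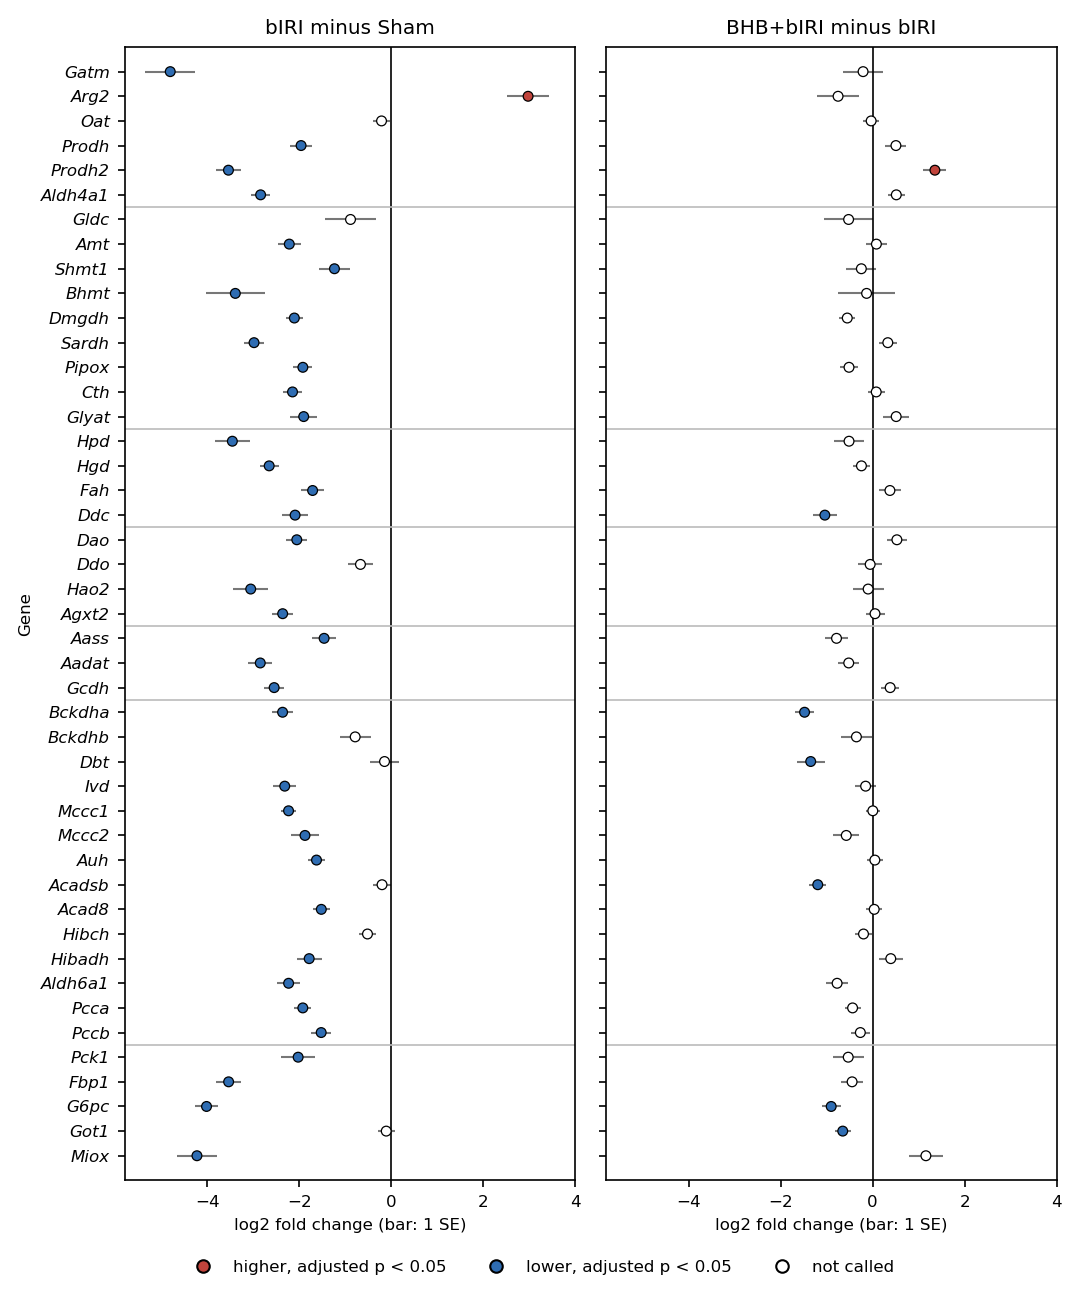
Log2 fold changes of the 45 members with 1 SE, in bIRI minus Sham (left) and BHBNa_bIRI minus bIRI (right); filled points passed an adjusted p of 0.05, red for higher and blue for lower. On the left nearly all points lie below 0, and on the right most are open and lie on either side of 0.

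**Figure D5:**
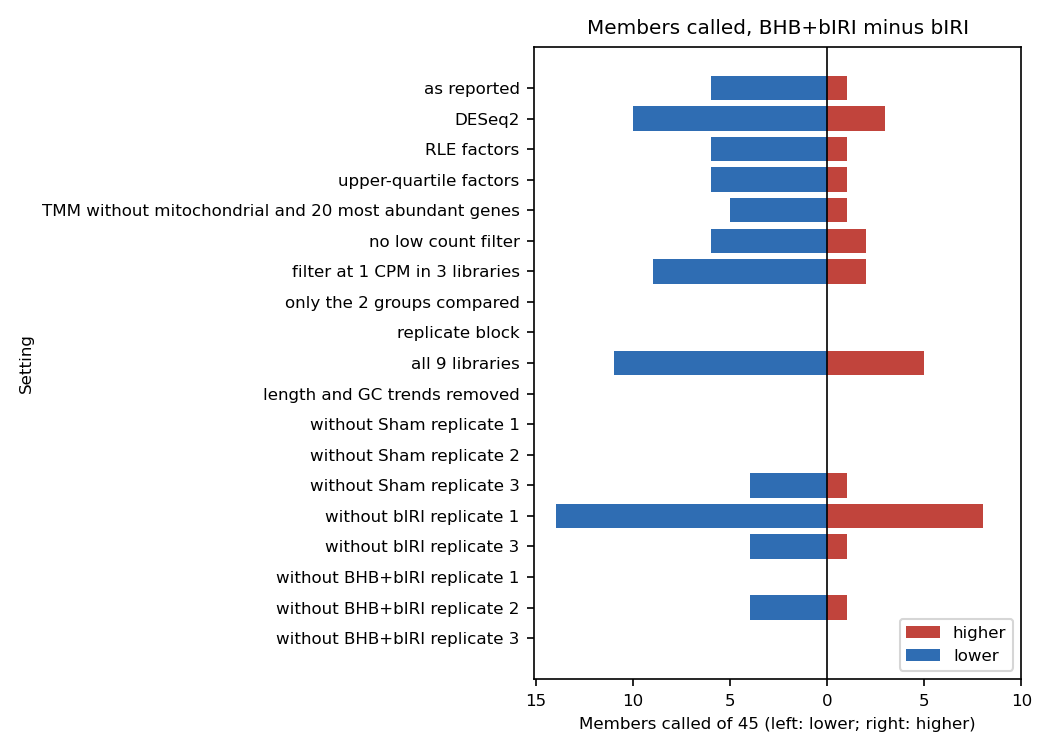
Number of the 45 members called lower (left of 0) and higher (right of 0) in BHBNa_bIRI minus bIRI under each processing setting. The counts run from 0 to 14 lower and from 0 to 8 higher, and 7 settings call none.

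Trends with length were taken over 12390 genes with a length on record and above a minimum mean level, all measured in the same libraries. Across them, Spearman's rho between transcript length and the log2 fold change of BHBNa_bIRI against bIRI was -0.537, and with GC content it was 0.446. Over the 45 members these values were -0.127 and 0.274. The median member transcript was 2198 bases long, and the median over all genes tested, a larger set, was 2760.5 bases. With smooth trends in length and GC content removed, edgeR called 0 of the 45, with 12 lower and 3 higher at an unadjusted p under 0.05, and 2 of 17967 genes in all. The estimates for Bckdha and Got1 were then -2.002 and -0.91, larger in size than before, and outside the threshold. Acadsb, whose transcript of 6081 bases was among the longest, went to -0.50 and Prodh2 to 0.85. In bIRI against Sham, rho over the 12390 genes was 0.215 with length and -0.22 with GC content. With trends removed in that comparison, the median log2 fold change of the members went from -2.05 to -1.77, and 38 were called lower and 1 higher.

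The third comparison, BHBNa_bIRI against Sham, uses the same Sham libraries as the first and is given beside it for that reason only. In it 43 of the 45 members fell and 1 rose, where 22.2% of all genes fell and 21.3% rose, with a median log2 fold change of -2.23 against 0.04 over all genes. In 44 members all 3 pretreated libraries lay below Sham, where 32.2% of all genes did, and Arg2 lay above it in all 3, where 32.6% did. The exception to the falls was Arg2, at 2.22 (SE 0.43, adjusted p 0.00297) and 1.502 without BHBNa_bIRI replicate 3, and Oat was not called (log2 fold change -0.25, SE 0.16, adjusted p 0.238). Gatm fell 32.3-fold and G6pc 30.3-fold against Sham, Bckdha 14.4-fold and Prodh2 4.56-fold. Gldc, Ddo and Bckdhb lost the call in some alternatives, with 7, 8 and 2 of the 18 respectively. Group means ran in the order Sham, bIRI, BHBNa_bIRI in 28 members and in the order Sham, BHBNa_bIRI, bIRI in 16, and for Arg2 bIRI was highest and Sham lowest.

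Levels were set side by side per kilobase of merged exons, which for some genes far exceeds one transcript (10179 against 1825 bases for Hibadh), so that their order depends on the length used. In Sham, Miox (1717 RPKM), Pck1 (1302 RPKM) and Fbp1 (779 RPKM) were high, and Bhmt was low (0.602 RPKM). In bIRI, Pck1 was at 320 RPKM, Miox at 91.8 RPKM, Oat at 86.6 RPKM and Fah at 85.2 RPKM. The mean CPM of Oat in bIRI was 86.3% of that in Sham. In BHBNa_bIRI, Pck1 was at 221 RPKM and Miox at 205 RPKM. As a share of the mean in Sham, members in bIRI ranged from 3.57% for Gatm, 5.34% for Miox and 6.17% for G6pc to 92.7% for Got1, leaving out Arg2.

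Other genes of the same pathways fell as well. Of 74 such genes, 68 were tested, and in bIRI against Sham 49 fell, 3 rose and 16 were not called. Of all genes tested, 16.2% fell and 18.9% rose. The median log2 fold change was -1.69, against 0.08 over all genes tested. The genes not tested were Otc, Sds, Tat, Agxt, Hao1 and Tdo2, enzymes that the liver holds in quantity, at means of 0 to 0.196 CPM in each group. Among arginine enzymes 4 of 9 tested fell, including Ass1, of citrulline conversion, at -4.21 (SE 0.40, adjusted p 0.000142), and Gamt, the methyltransferase after Gatm, at -2.53 (SE 0.26, adjusted p 0.000215). Of the glycine, choline and sulfur genes 10 of 15 fell, among them Gnmt, the glycine methyltransferase (log2 fold change -3.27, SE 0.33, adjusted p 0.000202), and of the aromatic genes 4 of 4, with Gstz1, the maleylacetoacetate isomerase between Hgd and Fah, at -2.28 (SE 0.20, adjusted p 9.25e-05). The D-amino acid and glyoxylate genes fell in 3 of 3 tested, with catalase, Cat, at -2.04 (SE 0.22, adjusted p 0.00025). Tryptophan and lysine genes fell in 7 of 7, among them Kmo, of the kynurenine pathway, at -2.83 (SE 0.19, adjusted p 4.91e-05). In the branched-chain branch 14 of 16 fell, with Echs1, the enoyl-CoA hydratase, at -2.19 (SE 0.19, adjusted p 8.98e-05), and in gluconeogenesis and linked steps 7 of 14 fell, with pyruvate carboxylase, Pcx, at -2.95 (SE 0.24, adjusted p 7.79e-05).

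Among the 3 that rose were Aldh18a1, whose enzyme starts proline synthesis from glutamate (log2 fold change 1.503, SE 0.28, adjusted p 0.00329), and the cytosolic arginase gene Arg1 (log2 fold change 4.92, SE 1.21, adjusted p 0.0122), both named after their values were seen. Arg1 was at 0.0467 CPM in Sham on average, under the floor of 3 counts per library, and at 2.71 and 0.393 CPM in bIRI. In BHBNa_bIRI against bIRI 8 of the 68 rose and 8 fell, where 4.88% of all genes tested rose and 8.65% fell. The median was 0.17, against -0.05 over all genes tested. With the replicate block 0 of all genes tested were called in this comparison, so none of the calls named next held in every alternative. Gamt rose by 1.38 (SE 0.25, adjusted p 0.0275) on the log2 scale and Gcat, of threonine breakdown, by 2.15 (SE 0.37, adjusted p 0.0275). Dld, which encodes the E3 component shared by the branched-chain complex and the glycine cleavage system, fell, with a log2 fold change of -0.98 (SE 0.18, adjusted p 0.0275). Mut, the methylmalonyl-CoA mutase at the end of the propionate route, fell, with a log2 fold change of -1.29 (SE 0.24, adjusted p 0.0275). Etfdh, which passes electrons of Ivd, Acadsb, Dmgdh and Sardh to the respiratory chain, fell, with a log2 fold change of -1.18 (SE 0.22, adjusted p 0.0275). Not all genes of the branched-chain branch went down. Of its 16 other genes 2 rose and 4 fell, and 5 lay above and 5 below bIRI without overlap. Their median log2 fold change was -0.0757. The kinase and phosphatase genes that set the activity of the branched-chain complex, Bckdk and Ppm1k, also named after their values were seen, had 0.43 (SE 0.17, adjusted p 0.107) and -0.68 (SE 0.31, adjusted p 0.148).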

How the data were processed

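The submitters' processing notes name HISAT2, featureCounts, Subread and DESeq2 and the build mm10; their versions and settings, the annotation and the strand option are not given in the sources used here. Each deposited file holds raw read counts per gene, as whole numbers, for 1 library. Symbols, positions and exon lengths came from GENCODE M21 (GRCm38, equivalent to mm10), where 29220 of 29678 identifiers had a symbol.

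The table of bIRI replicate 2 equaled, in all 29678 genes, the rounded-down average of the other bIRI tables, and was left out of the fit. The default expression filter of edgeR (version 4.0.16, R 4.3.3) kept 17967 genes, and library sizes were scaled by TMM. A robust quasi-likelihood model with 1 mean per group was fitted to 8 libraries with 5 residual degrees of freedom. All tests were two-sided, with p-values adjusted by Benjamini and Hochberg over all genes tested within each comparison and a threshold of 0.05. SE is the size of the log2 fold change divided by the square root of F. RPKM divides CPM by kilobases of merged exons. Alternatives were DESeq2 1.42.0, other scalings, filters and sample sets, a replicate block, offsets for length and GC content (splines with 5 degrees of freedom), and leaving out each library.

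The members, branches, other lists and tests were chosen with earlier results of these data known. Values in every library are given for the committed enzymes of each branch. They are also given for the members with the largest and smallest change per branch in bIRI against Sham. Members called in the second comparison or called higher in the first have them too, with some members added. Unless said otherwise, other pathway genes are named from those with a low adjusted p, not always the lowest of their branch. Pcx is the GENCODE symbol of the listed Pc, and of 2 identifiers named Gcat the one with more counts was used. Some listed genes, and a motif searched in the promoters, are not reported here.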

Additional observations from a re-analysis of the deposited data

How the results depend on the processing

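In BHBNa_bIRI against bIRI, 6 members lower and 1 higher became 10 and 3 with DESeq2, 11 and 5 with all 9 tables (the averaged one included), and 0 and 0 with only the 2 groups compared, with the replicate block, and with length and GC trends removed. At an unadjusted p under 0.05 these 3 fits had 10, 10 and 12 lower and 4, 4 and 3 higher. Without a low count filter 6 were lower and 2 higher, and with a filter at 1 CPM 9 and 2. Leaving out each library gave 0 to 14 lower and 0 to 8 higher. Over all genes, 876 higher and 1555 lower became 0 and 0 with the replicate block, and at most 4183 and 4198, without bIRI replicate 1. Deviations from the group means correlated from -0.206 to 0.093 between same-numbered libraries. With 2 or 3 libraries a group these deviations cancel within each group, so the values cannot show whether the numbers pair the libraries. The cause of these shifts was not tested. In bIRI against Sham the range was 35 to 41 lower over all alternatives and 1 higher in each, and in BHBNa_bIRI against Sham 40 to 43 lower and 1 higher; over all genes, 3396 higher and 2907 lower in bIRI became 2088 and 2104 without Sham replicate 2 and 4454 and 4610 without bIRI replicate 1.

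Some estimates that were not called changed sign. With length and GC trends removed, Got1 in bIRI against Sham was 0.25, while Amt, BHBNa_bIRI against bIRI, was -0.0805, with Fah -0.10, Ddo 0.13, Hao2 0.0323 and Mccc1 -0.0011 (Mccc1, BHBNa_bIRI against bIRI). With the replicate block Ddo was 0.033, and with a filter at 1 CPM Mccc1 was -0.027. Over fits without 1 library, log2 fold changes in BHBNa_bIRI against bIRI that changed sign were Gatm -0.71 to 0.12, Oat -0.049 to 0.0297, Gldc -1.26 to 1.09, Amt -0.18 to 0.48, Shmt1 -0.71 to 0.56, Bhmt -1.004 to 0.26, Cth -0.022 to 0.19, Hpd -0.96 to 0.23, Ddo -0.38 to 0.46, Hao2 -0.36 to 0.31, Agxt2 -0.23 to 0.44, Bckdhb -0.80 to 0.42, Mccc1 -0.0028 to 0.0505, Mccc2 -0.96 to 0.0562, Auh -0.0573 to 0.21, Acad8 -0.11 to 0.23, Hibch -0.37 to 0.0645, Pccb -0.47 to 0.0197 and Pck1 -0.94 to 0.0889, and Dbt in bIRI against Sham ranged from -0.81 to 0.24.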
